A study of Mus musculus with 18 samples.

Results

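Colorectal tumours were compared with inflamed colon within the mouse line whose libraries carry the genotype label Il1f5-/-. The libraries were chosen by their labels: 2 tumour libraries and 3 colitis libraries, 5 of the 18 in the series. Both sets of mice were C57BL/6 and carried the label Il1f5-/-. The colitis mice drank 2.5% dextran sulfate sodium (DSS) for 5 days and then water for 2 days, and a 0.5 cm piece of distal colon near the anus was homogenised whole. The tumours came from the azoxymethane (AOM) and DSS model, in which a carcinogen is followed by DSS. The other libraries used here were 2 tumours and 3 colitis colons labelled Il1f5+/+ (called WT below), given the same treatments, and 2 tumours and 2 colitis colons labelled Il1f9-/-. The 2 tumours and 2 colitis colons of the wild types of the Il1f9 line entered only the shared fit. Age and sex are not in the labels, and nothing there says whether a library is 1 animal or 1 tumour. The p-values thus measure spread between libraries, estimated over the 8 groups of all 18 libraries. Tissue, treatment and the table in which the counts were deposited change together, so they cannot be told apart in any difference below.

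Il1f5 encodes the IL-36 receptor antagonist, a secreted protein that occupies the IL-36 receptor without activating it. The IL-36 agonists, encoded by Il1f6, Il1f8 and Il1f9, signal through the receptor chain Il1rl2 and its partner Il1rap, and are known in the gut for their part in inflammation and mucosal healing. In AOM/DSS tumours, activation of the Wnt pathway through beta-catenin is the usual driver, and Wnt signalling is also what keeps the stem cells at the base of the normal crypt.

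Il1f5 itself is on chromosome 2 (24276954 to 24283426, plus strand, in the deposited annotation). The libraries labelled Il1f5 KO held Il1f5 reads: 211 and 102 counts in the 2 tumours and 36, 43 and 45 in the 3 colitis colons. The WT libraries of the same line held 0 counts in each tumour and each colitis colon, so the gene goes against the label, and the groups are named here only by their labels. Which part of the gene was targeted is not in the labels. In CPM (counts relative to library size, scaled by the trimmed mean of M values, TMM) Il1f5 was 10.0 and 5.35 in the tumours labelled Il1f5 KO and 1.91, 2.10 and 2.49 in the colitis colons. The log2 fold change was 1.83 ± 0.39 (SE; adjusted p = 0.00315), and the call was lost without tumour replicate 1 (adjusted p = 0.0561).

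The 5 libraries held 17490357 to 21527832 counts over genes, with 2.609% to 3.562% in mitochondrial genes and 4.806% to 6.606% in the 10 most counted genes. On log2 CPM the 2 tumour libraries correlated at 0.983, the colitis libraries at 0.982 to 0.985, and tumour with colitis libraries at 0.859 to 0.882. All 5 libraries held reads of Y-linked genes and at most 0.244 CPM of Xist.

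Of 19514 genes tested, 5666 were higher and 5329 lower in tumours (edgeR quasi-likelihood test, Benjamini-Hochberg adjusted p under 0.05), which is 29.0% and 27.3% of the genes tested, or 56.3% in either direction. Where a change of more than 1 on the log2 scale was required in the test itself, 1446 were higher and 2221 lower. The median log2 fold change over all genes tested was 0.00. With a background this high, each gene group below is described by its own counts and its median, and a share near these percentages is not a result about the group. In this bulk RNA, fewer cells of a type and less RNA per cell cannot be told apart.

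**Figure D1:**
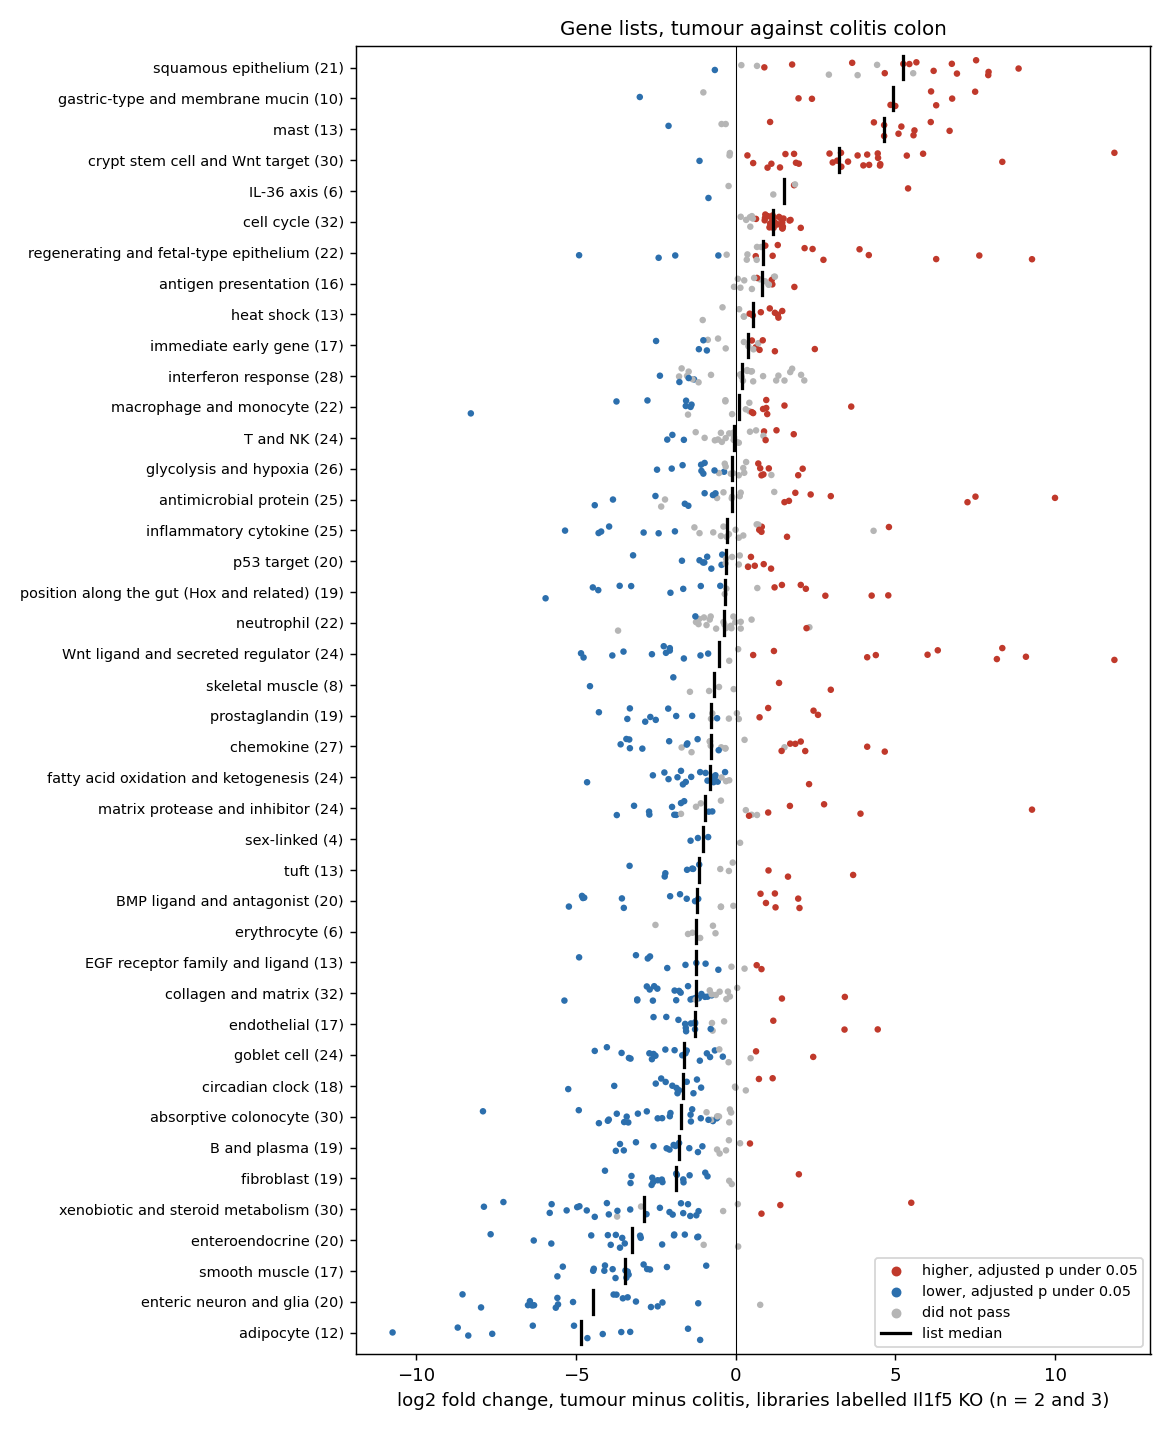
Each point is 1 gene of a list, placed by its log2 fold change (tumour minus colitis, libraries labelled Il1f5 KO, 2 and 3 libraries), coloured red where higher, blue where lower and grey where it did not pass; black bars are list medians and numbers in brackets are genes tested. The squamous, gastric-type, mast cell and crypt stem cell lists sit to the right, with medians from 3.24 to 5.25 (the squamous median is 2.91 without tumour replicate 2), and the adipocyte, neuron, smooth muscle and enteroendocrine lists to the left, with medians from -3.23 to -4.85.

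Genes of crypt stem cells and Wnt targets were higher in the tumours: 27 of 30 rose, 1 fell and 2 did not pass, with a median log2 fold change of 3.24. The summed level of the list was 5175 to 5467 CPM in tumours and 1069 to 1288 CPM in colitis colons. Notum encodes a secreted enzyme that inactivates Wnt ligands and is on chromosome 11 (120653788 to 120661175, minus strand). It stood at 283 CPM in both tumours and at 0.053, 0.0488 and 0.111 CPM in the colitis colons, a log2 fold change of 11.86 ± 0.40 (adjusted p = 6.32e-11). Wif1, which encodes a secreted Wnt-binding inhibitor, was 473 and 546 CPM in tumours and 1.96, 1.27 and 1.44 CPM in colitis colons (8.35 ± 0.25; adjusted p = 8.21e-12). Both genes, feedback targets of the pathway they restrain, were near the detection limit or low in every colitis library and high in both tumours.

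Lgr5, the R-spondin receptor that marks crypt base stem cells, was 66.3 and 60.3 CPM in tumours against 2.17, 1.41 and 4.70 CPM in colitis colons (4.53 ± 0.70; adjusted p = 0.000210). Axin2, a scaffold of the beta-catenin destruction complex and a direct Wnt target, was 379 and 410 CPM against 16.8, 12.4 and 24.7 CPM (4.46 ± 0.27). Prox1, a homeobox transcription factor, was 241 and 296 CPM against 14.6, 13.9 and 8.18 CPM (4.45 ± 0.33). In none of these genes did a tumour library overlap a colitis library. Apcdd1, a membrane-bound Wnt inhibitor, rose by 5.36 ± 0.19 and Ascl2, a stem cell transcription factor, by 3.82 ± 0.50. Olfm4, another gene used to mark stem cells, did not pass (-0.19), nor did Lrig1 (-0.18), and Rgmb, a co-receptor for BMPs, was the member that fell (45.1 and 42.9 CPM against 101, 94.8 and 92.0 CPM; -1.13 ± 0.12).

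The promoters of Sp5 and Lef1, which encode transcription factors that rose with this list, are shown because a window of each holds the core letters of the motif read by the TCF/LEF factors of the pathway. Lef1 has 4 windows in the table, and the other 3, at its other starts, hold no match. The windows run from 250 bases before to 50 bases after a transcription start, from RefSeq on GRCm38.p6, both on the plus strand, and capitals mark CTTTGA or its reverse complement TCAAAG. The Sp5 window is chr2:70474673-70474972 and the Lef1 window, at a start inside the gene's span, is chr3:131156044-131156343.
Sp5: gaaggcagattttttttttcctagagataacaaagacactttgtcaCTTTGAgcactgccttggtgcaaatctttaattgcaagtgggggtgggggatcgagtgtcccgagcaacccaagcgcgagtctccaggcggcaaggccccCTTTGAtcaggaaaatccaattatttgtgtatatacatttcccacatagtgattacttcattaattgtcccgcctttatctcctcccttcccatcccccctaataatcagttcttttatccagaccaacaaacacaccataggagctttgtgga
Lef1: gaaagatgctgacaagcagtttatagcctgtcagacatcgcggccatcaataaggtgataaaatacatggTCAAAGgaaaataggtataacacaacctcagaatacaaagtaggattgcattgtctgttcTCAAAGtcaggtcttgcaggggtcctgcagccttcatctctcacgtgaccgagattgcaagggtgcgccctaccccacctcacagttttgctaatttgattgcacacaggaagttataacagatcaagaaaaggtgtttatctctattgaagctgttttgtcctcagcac
Each printed window holds 2 matches. Sp5 was 73.6 and 97.9 CPM in tumours and 1.27, 0.683 and 2.49 CPM in colitis colons (5.87 ± 0.39), and Lef1 was 30.8 and 31.2 CPM against 1.64, 1.12 and 1.27 CPM (4.52 ± 0.30). Of the 27 risen members, 15 had a window in the RefSeq table, 22 windows in all, and 3 of those windows (13.6%) held the 6 letters on either strand. Over all 32851 promoter windows of this length the share was 16.0%, so the letters were about as common in the risen members' windows as elsewhere.

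Other genes stood out by the size of their change. Pnliprp1, a member of the pancreatic lipase family, had 6411 and 8642 counts in the tumours and 0, 1 and 1 in the colitis colons, a ratio of 10785 (95% counting interval 2985 to 89066). Mmp7 (matrilysin, an epithelial metalloproteinase) was 607 and 573 CPM in tumours against 0.795, 0.926 and 1.11 CPM, a rise of 9.28 ± 0.27. The metallothionein gene Mt4 rose by 10.29 ± 0.57 and the serum albumin gene Alb by 9.48 ± 0.63. R3hdml, the adenylate cyclase gene Adcy8, the stem cell receptor gene Lgr6, the zinc transporter gene Slc30a2 and Habp2, a serum protease, rose by between 7.99 and 9.01. In each of these genes both tumours were above every colitis library. The rule for the largest rises and falls required such a separation, so it is no result. Among the largest falls were those of Slc30a10, a manganese and zinc transporter of the gut (0.0951 and 0.105 CPM in tumours against 101, 46.4 and 98.3 CPM; -9.59 ± 0.59) and Mamdc2 (a matrix-associated protein; 1 tumour count against 1109, a ratio of 774 with an interval of 139 to 30595). Osr2, a zinc finger factor of mesenchyme, was 0.380 and 0.367 CPM against 98.5, 83.8 and 105 CPM (-7.98 ± 0.64). Rims1, a synaptic active zone protein, fell by 7.49 on the log2 scale. The potassium channel partner gene Dpp10 had 2 tumour counts against 663 (a ratio of 231, interval 63.8 to 1914), and Calb2, which encodes the neuronal calcium binder calretinin, 2 against 1162 (405, interval 112 to 3352).

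**Figure D2:**
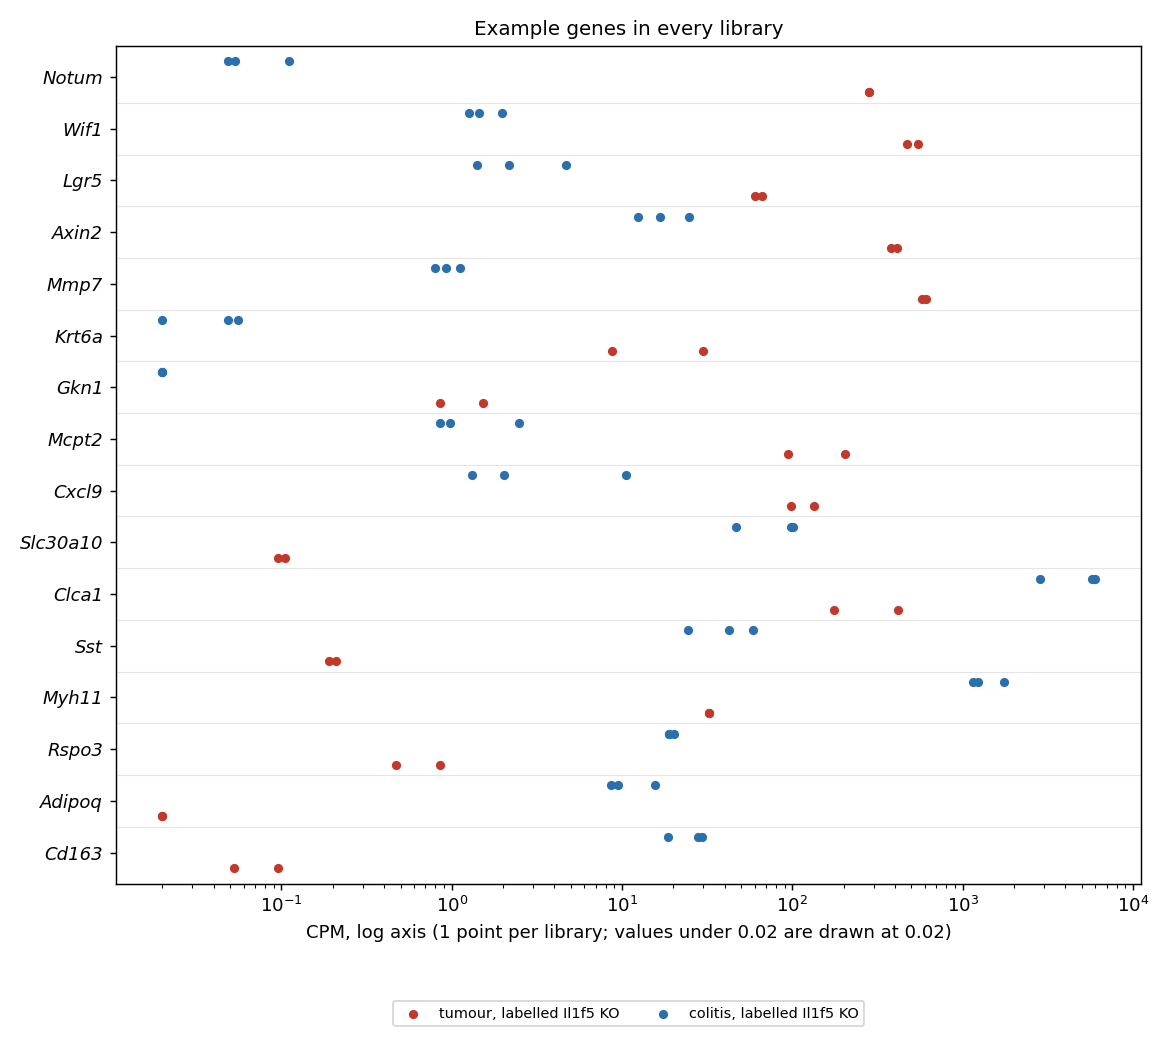
CPM of 16 example genes on a log axis, 1 point per library, for the 2 tumours (red) and 3 colitis colons (blue) labelled Il1f5 KO. In every gene drawn the tumour and colitis points do not overlap: Notum is at 283 CPM in both tumours and at most 0.111 CPM in colitis, and Adipoq, with no tumour count, is drawn at the left limit. The examples are picked genes, so the lack of overlap is no result about all genes.

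Among Wnt ligands and their secreted regulators the members split: of 24 tested, 10 were higher, 12 lower and 2 did not pass. The ligand genes Wnt10a (42.4 and 59.4 CPM against 0.053, 0.0488 and 0.166 CPM; 9.09 ± 0.42) and Wnt3 (4.47 and 2.15 CPM against 0, 0.0975 and 0 CPM) rose. R-spondins, which amplify Wnt signalling at the receptor, went both ways. Rspo3 fell from 18.9, 20.2 and 18.9 CPM in colitis to 0.856 and 0.472 CPM in tumours (-4.84 ± 0.69), and Rspo1 fell from 3.50, 2.68 and 2.43 CPM to 0.143 and 0.0525 CPM (-4.76 ± 0.83). Rspo2 fell to 2 counts in the tumours from 47 (a ratio of 16.4, interval 4.29 to 139). Rspo4 rose, with 52 and 25 counts in tumours and none in the 3 colitis colons, at least 36.8-fold higher when the floor is 3 counts over the colitis group. Wnt2, the first of the list, had too few counts to be tested (11 in tumours and 19 in colitis colons). Of the 24, 5 reached the count minimum only in tumours and 5 only in colitis colons. That minimum is 10 counts in at least 2 libraries of the tissue, and the direction of these members goes with it. The filter of the test ran over all 8 groups.

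BMPs oppose Wnt signals as cells leave the crypt. In the list of their ligands, antagonists and target genes 11 of 20 members fell and 6 rose. Bmp3 was 2.52 and 3.20 CPM in tumours against 112, 105 and 102 CPM (-5.22 ± 0.34), and Chrdl1, which encodes an antagonist of BMPs, fell by 4.78 ± 0.32. Bmp2 fell by 1.53 ± 0.26, while Bmp7 (86.3 and 75.7 CPM against 19.5, 26.1 and 16.6 CPM) rose by 1.96 ± 0.22. Id1, a target gene of BMP signalling, was higher, at 329 and 348 CPM against 74.6, 90.8 and 87.6 CPM (2.00 ± 0.18). In the EGF receptor family, 9 of 13 were lower and 2 higher, and 2 of the 13 reached the count minimum only in colitis colons. Egfr itself did not pass (51.0 and 50.1 CPM against 55.8, 58.8 and 51.8 CPM). Its ligand gene Ereg fell from 238, 431 and 224 CPM to 10.6 and 9.34 CPM (-4.90 ± 0.61). Its feedback inhibitor Errfi1 and the list member Lrig3 fell by 1.57 and 2.14 on the log2 scale, and the ligand genes Tgfa (0.66 ± 0.13) and Btc (0.81 ± 0.24) rose.

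Genes of differentiated colon epithelium were lower in the tumours. Of 30 genes of absorptive colonocytes, 22 fell and 8 did not pass (median -1.73), and their summed level was 3726 to 3831 CPM in tumours against 16701 to 20418 CPM in colitis colons. Car1, a carbonic anhydrase of surface colonocytes, was 187 and 172 CPM against 5057, 4096 and 7002 CPM (-4.91 ± 0.62; adjusted p = 3.50e-05). Slc51a, a subunit of the basolateral bile acid exporter, was 0.665 and 0.157 CPM against 77.0, 102 and 129 CPM (-7.91 ± 0.84). Ceacam1, an adhesion receptor, and Sult1a1, a sulfotransferase, fell by 2.04 and 3.97 on the log2 scale.

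Of 24 goblet cell genes 19 fell, 2 rose and 3 did not pass (median -1.62). Muc2, the gel-forming mucin of the colon, was 615 and 775 CPM in tumours against 8986, 6206 and 5935 CPM (-3.34 ± 0.26; adjusted p = 5.16e-08). Clca1, a secreted mucus-processing protein, was 176 and 415 CPM against 5721, 5968 and 2835 CPM (-4.03 ± 0.46). Zg16, a lectin of the mucus layer, fell by 3.57 ± 0.22 and Retnlb, a secreted antibacterial protein of goblet cells, by 4.41 ± 0.46. The members that rose were Kcnk1, a potassium channel gene (0.64 ± 0.14), and Itln1, an intelectin (169 and 182 CPM against 23.4, 62.6 and 11.3 CPM; 2.43 ± 0.77). The Itln1 call was lost without colitis replicate 1 (adjusted p = 0.063) or 3 (0.0564) and without tumour replicate 1 (0.0559) or 2 (0.0641).

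Of 20 tested enteroendocrine genes 18 fell and 2 did not pass, with a summed level of 54.5 to 94.0 CPM in tumours and 543 to 729 CPM in colitis colons. The hormone gene Sst (somatostatin) was 0.190 and 0.210 CPM against 42.7, 58.8 and 24.4 CPM (-7.67 ± 0.53), and the granule protein gene Scg2 fell by 6.32 ± 0.46. Chga, of the same granules, was 3.52 and 6.19 CPM against 98.2, 54.6 and 79.3 CPM (adjusted p = 1.56e-06). Of these 20 genes 8 reached the count minimum only in colitis colons. Tuft cell genes were mixed, with 7 of 13 lower and 3 higher. The summed level of this list was higher in tumours, at 741 to 798 CPM against 427 to 476 CPM in colitis colons. Dclk1, often used to mark tuft cells, fell from 29.9, 35.8 and 23.4 CPM to 2.99 and 2.94 CPM (-3.32 ± 0.34) and the cyclooxygenase gene Ptgs1 fell by 1.36 ± 0.21, whereas Avil, an actin-binding protein of these cells, rose from 11.3, 13.2 and 6.58 CPM to 151 and 116 CPM (3.68 ± 0.22) and the phospholipase gene Plcg2 by 1.64 ± 0.16.

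Metabolic genes of the mature colon were lower. Of 30 xenobiotic and steroid metabolism genes 23 fell and 3 rose (median -2.87), with 4 that reached the count minimum only in colitis colons and 1 only in tumours. Cyp2c55, a cytochrome P450 of the colon, was 9.65 and 14.2 CPM in tumours against 1898, 1028 and 2584 CPM (-7.27 ± 1.14; adjusted p = 0.000250), and Cyp3a13 fell by 4.03 ± 0.25. The glucuronosyltransferase gene Ugt2b5 had 3 tumour counts against 1116, a ratio of 260 (interval 88.6 to 1261). Cyp2b10 rose from at most 0.146 CPM in each colitis library to 4.52 and 3.94 CPM (5.50 ± 0.61). The glutathione transferase gene Gsta3 rose by 1.40 ± 0.34, a call lost without tumour replicate 2 (adjusted p = 0.0989). Of 24 fatty acid oxidation and ketogenesis genes 20 fell and 1 rose. Ppara, the nuclear receptor of fatty acid breakdown, was 0.761 and 0.997 CPM against 18.8, 27.6 and 19.8 CPM (-4.65 ± 0.28), and the carnitine carrier gene Slc25a20 fell by 1.65 ± 0.15. The member that rose, the thioesterase gene Acot12, stayed under 1 CPM in every library, and its call was lost without tumour replicate 2 (adjusted p = 0.0562).

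Glycolysis and hypoxia genes went both ways, 7 higher and 9 lower of 26 (median -0.11). The glucose transporter gene Slc2a1 fell from 233, 292 and 244 CPM to 120 and 122 CPM (-1.08 ± 0.15), the hypoxia-responsive Ndrg1 by 2.00 ± 0.20 and the phosphofructokinase gene Pfkp by 1.07 ± 0.14. The lactate exporter gene Slc16a3 rose from 41.9, 57.6 and 67.2 CPM to 267 and 211 CPM (2.10 ± 0.24), and the aldolase gene Aldoc rose by 1.96 ± 0.18.

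Genes of regenerating and fetal-type epithelium, 12 of 22 higher and 4 lower, included Mmp7 above. Krt20, a keratin of mature surface cells placed in the same list, fell by 1.89 ± 0.22, and Ereg fell as given above. The list's first gene, Ly6a (Sca-1), was 934 and 775 CPM against 501, 374 and 778 CPM and overlapped between tissues. Its log2 fold change of 0.63 ± 0.25 (adjusted p = 0.0451) did not pass without any 1 of tumour replicate 1 (0.242), tumour replicate 2 (0.0595), colitis replicate 1 (0.119) or colitis replicate 2 (0.152). The lower count became 2 without tumour replicate 1 of the KO label and 2 without tumour replicate 2.

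Antimicrobial genes split evenly by calls, 8 of 25 higher and 8 lower, shares near those over all genes. Their summed level was lower in tumours, at 8131 to 8594 CPM against 14172 to 14666 CPM in colitis colons. The lysozyme gene Lyz1 of Paneth cells, a small intestinal cell type that the normal colon lacks, was 477 and 551 CPM in tumours against 2.33, 3.71 and 2.38 CPM (7.51 ± 0.53; adjusted p = 2.71e-07). Defa24, a Paneth cell defensin of a family of near-identical genes whose reads the counting could split, was 93.8 and 133 CPM against 0.053, 0.244 and 0 CPM (10.00 ± 1.34). Pla2g2a, a bactericidal phospholipase, rose from 2.55, 0.683 and 5.75 CPM to 574 and 334 CPM (7.26 ± 0.74). Lyz2, the lysozyme of macrophages, rose by 1.53 ± 0.23. Reg3g, a lectin induced in colitis, did not pass (338 and 149 CPM against 338, 304 and 447 CPM), and Sprr2a3 fell by 1.59 ± 0.34. Ang4 fell from 732, 970 and 391 CPM to 116 and 130 CPM (-2.51 ± 0.60). Nos2, the inducible nitric oxide synthase gene, was 217 and 199 CPM against 60.8, 53.2 and 56.8 CPM (1.87 ± 0.66; adjusted p = 0.0310), and its call was lost when any 1 of the 5 libraries of the KO label was left out (adjusted p = 0.0643 to 0.100) and in the fit with a block for the replicate number (0.0664). Without tumour replicate 1 the lower count of this list was 5.

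Squamous epithelium genes were higher in tumours, with 14 of 21 tested risen, 1 fallen and 6 that did not pass. The median was 5.25 (2.91 without tumour KO replicate 2), or 4.67 with genes that had no colitis count set at their bound, and 9 of the 21 reached the count minimum only in tumours. The summed level was 349 and 659 CPM in the 2 tumours and 69.6 to 90.9 CPM in colitis colons. Ly6d was 143 and 176 CPM against 3.61, 2.88 and 4.59 CPM (5.44 ± 0.25). Krt6a, a keratin of stratified and wounded epithelium, was 8.70 and 29.7 CPM in tumours and had 2 counts over the 3 colitis colons, a ratio of 537 (interval 148 to 4440). Krt4, a keratin of inner stratified layers, had 153 and 81 tumour counts and 1 colitis count (a ratio of 335, interval 59.6 to 13300). Krt5, the basal keratin, rested on 1 tumour: 1.62 and 37.9 CPM against 0.636, 0.341 and 0.166 CPM, and its log2 fold change of 5.66 ± 2.20 (adjusted p = 0.0479) was not called without any 1 of tumour replicate 2 (0.593) or colitis replicates 1, 2 and 3 (0.0961, 0.116 and 0.117). The member that fell, Krt10, did so by 0.65 ± 0.22, a call lost without colitis replicate 3 (0.0576) or tumour replicate 2 (0.0893).

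Of 10 tested genes of gastric-type and membrane mucins and their partners, 8 were higher and 1 lower. The median was 4.92, or 3.87 with the genes that had no colitis count at their bound. Of the 10, 3 reached the count minimum only in tumours. The summed level went the other way, at 323 to 353 CPM in tumours against 1496 to 2069 CPM in colitis colons. Most of that sum was Muc3, the member that fell. Muc6, a gastric gland mucin, was 68.2 and 49.2 CPM against 3.02, 1.22 and 1.27 CPM (5.00 ± 0.48), and the gastrokine gene Gkn3 was 8.13 and 7.29 CPM against 0.106, 0.0975 and 0.111 CPM (6.12 ± 0.64). The stomach genes Gkn1 and Cldn18 had 47 and 108 tumour counts in all and 0 and 1 colitis counts. The Gkn1 level was at least 22.5-fold higher in tumours, and its call was lost without tumour replicate 2 (adjusted p = 0.0525), while the Cldn18 ratio was 155 (interval 27.2 to 6169). Muc3, a membrane mucin of intestinal brush border, fell from 2053, 1487 and 1946 CPM to 240 and 216 CPM (-3.00 ± 0.28). Muc5ac, at 4 tumour counts and 1 colitis count, was not tested.

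Genes that mark position along the gut split, 7 higher and 9 lower of 19. Hoxb13 was 140 and 240 CPM against 11.3, 4.88 and 4.53 CPM (4.78 ± 0.59), and Hoxd12 rose by 4.26 ± 0.53 and Hoxa10 by 2.04 ± 0.20. Hoxb5 (1.85 and 1.15 CPM against 34.4, 24.7 and 30.7 CPM; -4.30 ± 0.40) and Hoxb8 (-3.63 ± 0.28) fell, and Hoxc6 had no tumour count against 23 in colitis colons, at least 5.35-fold lower. Cdx2, the intestinal identity factor, was 92.4 and 40.7 CPM against 273, 244 and 303 CPM (-2.04 ± 0.53), a call lost without tumour replicate 2 (adjusted p = 0.0632). Enteric neuron, glia and muscle genes, described below, fell beside Hoxb5 and Hoxb8, and their part in that fall was not tested.

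Cell cycle and DNA replication genes were higher, with 26 of 32 risen and 6 that did not pass (median 1.16). Mybl2, a transcription factor of S phase, was 60.4 and 35.6 CPM in tumours against 11.9, 7.22 and 16.1 CPM (2.04 ± 0.29; adjusted p = 3.51e-05). Mcm2 and Mcm5, subunits of the replicative helicase, were 143 and 114 CPM against 37.9, 27.9 and 53.9 CPM (Mcm2; 1.69 ± 0.21) and 162 and 117 CPM against 38.6, 30.4 and 58.4 CPM (Mcm5; 1.72 ± 0.26). Mki67, the proliferation marker, overlapped between tissues (192 and 161 CPM against 130, 74.5 and 168 CPM) and did not pass (0.51 ± 0.25; adjusted p = 0.0952). Colitis replicate 2 was the lowest of the colitis colons and replicate 3 the highest in all of these genes. In the growth-control genes of the Wnt list, the G1 cyclin gene Ccnd1 was 293 and 210 CPM against 59.8, 61.5 and 90.8 CPM (1.83 ± 0.18), Myc 145 and 105 CPM against 39.3, 35.1 and 53.2 CPM (1.56 ± 0.20) and Sox9, a crypt transcription factor, 221 and 182 CPM against 50.7, 45.7 and 56.5 CPM (1.98 ± 0.16).

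In the WT libraries the same contrast, tumour minus colitis, called 2 of the 32 cell cycle genes, both lower, with a median of 0.09. The summed level of the list was 2346 to 2925 CPM in KO tumours and 2116 to 2271 CPM in WT tumours. In colitis colons it was 845 to 1755 CPM in the KO label and 2077 to 2160 CPM in WT. The labels were thus unlike in colitis colons as well as in tumours. Over all genes the WT contrast called 41.7%, in either direction. The test of the difference between the labels called 10.8% of all genes higher and 7.23% lower in the libraries labelled Il1f5 KO, and 16 of the 32 cell cycle genes, all higher. That count was 1 without tumour replicate 1 of the KO label, 6 and 8 without tumour replicates 1 and 2 of the WT label, 10 and 9 without colitis WT replicate 2 and colitis KO replicate 1, and 25 without colitis KO replicate 3 or without the count filter. Mcm5 stood at 69.2 and 69.6 CPM in WT tumours and 69.1, 71.2 and 65.8 CPM in WT colitis colons, between the 2 groups of the KO label. Its 2 differences differed by 1.70 ± 0.37 (adjusted p = 0.00946; 0.0674 without tumour KO replicate 1). Mcm2 differed by 1.54 ± 0.30 and Mybl2 by 1.96 ± 0.42, the latter with adjusted p = 0.0642 without tumour KO replicate 1. Ccnd1, at 122 and 137 CPM in WT tumours and 143, 172 and 152 CPM in WT colitis colons, differed by 2.10 ± 0.26 (adjusted p = 0.00132) and kept its call in every library left out.

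Heat shock and chaperone genes rose in 8 of 13 cases, and 5 did not pass. Hsp90ab1, a major cytosolic chaperone, was 3075 and 2817 CPM in tumours against 996, 1038 and 1190 CPM (1.46 ± 0.12; adjusted p = 7.66e-08). Hspa8, the constitutive Hsp70, was 2869 and 2626 CPM against 1113, 1263 and 1149 CPM (1.23 ± 0.13), and Hspa5, the Hsp70 of the endoplasmic reticulum, rose by 0.79 ± 0.13. The inducible Hspa1a, the first of the list, did not pass (7.27 and 6.30 CPM against 9.28, 9.75 and 7.96 CPM). Among WT libraries 6 of the 13 fell. The summed level of the list was 8251 to 8567 CPM in KO tumours and 6403 to 6548 CPM in WT tumours. In colitis colons it was 3660 to 4099 CPM in the KO label and 7342 to 7714 CPM in WT. The difference between labels was called for 12 of the 13, all higher in the KO label, and for 9 to 12 of them with each library left out. Hsp90ab1 was at 1832 and 1799 CPM in WT tumours and 1825, 1777 and 1816 CPM in WT colitis colons, and the difference was 1.45 ± 0.17 (adjusted p = 0.000655). Hspa1a was 4.61 CPM in both WT tumours and 75.2, 57.4 and 96.5 CPM in WT colitis colons, so its difference between labels (3.64 ± 0.63) came with unlike colitis levels and near-equal tumour levels. Stip1, a co-chaperone outside the list, was 253 and 251 CPM in the KO tumours against 89.3, 95.3 and 99.1 CPM, and differed between labels by 1.39 ± 0.16.

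Trp53, the gene of the p53 tumour suppressor, on chromosome 11 (69580359 to 69591873, plus strand), was 15.8 and 17.1 CPM in tumours labelled Il1f5 KO and 49.4, 45.7 and 62.4 CPM in their colitis colons (-1.68 ± 0.13; adjusted p = 5.92e-08). In WT libraries it was higher in tumours, at 118 and 105 CPM against 59.4, 61.3 and 62.6 CPM (0.87 ± 0.12). The difference between the labels was -2.55 ± 0.17 (adjusted p = 2.97e-06). It had the smallest p in that test once unnamed genes, pseudogenes and immunoglobulin or T cell receptor segments were left out. Of 20 genes known as p53 targets, 9 fell, 5 rose and 6 did not pass in the KO label, where 2 fell and 7 rose in WT. The difference between labels was called for 7 of them, all lower in the KO label; with each library left out, 2 to 8 were called lower, with 2 without tumour KO replicate 1 and 4 without colitis KO replicate 1. Cdkn1a, the cell cycle inhibitor p21, was 120 and 107 CPM against 195, 250 and 245 CPM (-1.02 ± 0.18) and did not differ detectably between labels (-0.24 ± 0.25; adjusted p = 0.527), since it also fell in WT. Ccng1 fell by 0.76 ± 0.18 and differed by -1.08 ± 0.25 (adjusted p = 0.0103; 0.0665 without tumour KO replicate 1). Eda2r, a death receptor gene, had 6 counts in the KO tumours and was 4.81 and 4.46 CPM in WT tumours, a difference of -4.52 ± 0.84. Bbc3 (Puma, a killer protein of the Bcl-2 family; 1.11 ± 0.25) and Phlda3 (0.88 ± 0.21) rose, and Sesn1 fell by 1.68 ± 0.24. Without tumour KO replicate 1 the list had 3 members higher and 5 lower.

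**Figure D3:**
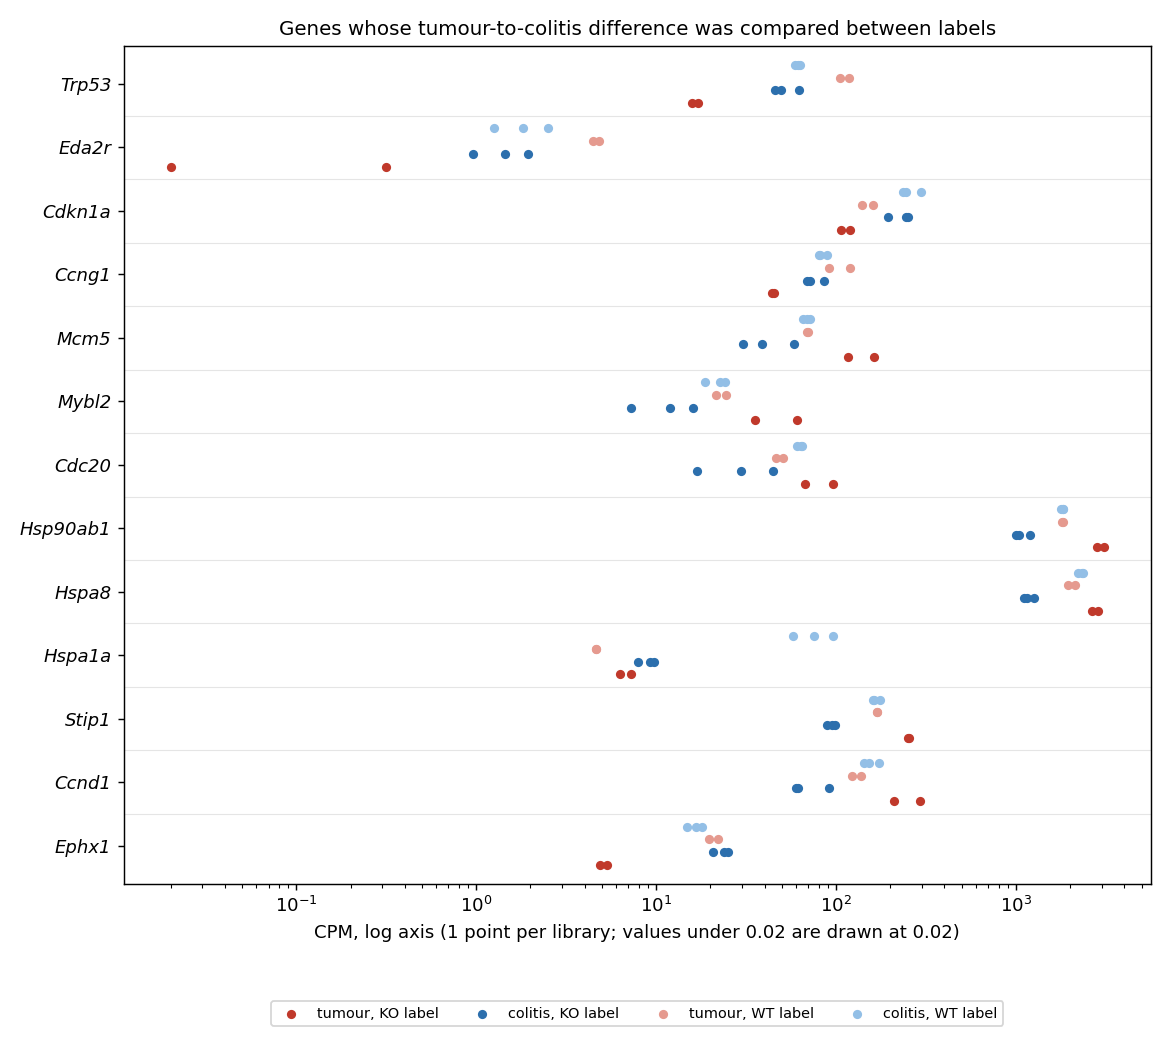
CPM on a log axis of 13 genes in every library of the Il1f5 line, 1 point per library: tumours and colitis colons labelled KO (dark red, dark blue) and WT (light red, light blue). Trp53 is lowest in the 2 KO tumours (15.8 and 17.1 CPM) and highest in the 2 WT tumours, and for Mcm5 and Hsp90ab1 the WT tumour and colitis points lie together between the 2 KO groups.

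Besides Trp53, the genes with the smallest p in the difference from WT were Fhl1, Snd1, Stip1, Ephx1, Hsp90ab1, Ckap4 and Sec61a1. Fhl1, a LIM protein of muscle, fell from 256, 274 and 195 CPM to 40.2 and 50.6 CPM in the KO label and stood at 117 and 108 CPM against 116, 101 and 96.5 CPM in WT (difference -2.51 ± 0.27). Ephx1, microsomal epoxide hydrolase, was 4.90 and 5.35 CPM in KO tumours and 19.6 and 22.0 CPM in WT tumours, with 14.9 to 24.9 CPM in all 6 colitis colons (difference -2.51 ± 0.29). Snd1, an RNA-binding nuclease, Ckap4, a membrane protein of the endoplasmic reticulum, and Sec61a1, the pore of its translocon, had differences of 1.45, 1.30 and 1.26. Where a log2 difference over 1 was required in the test, 0 of all genes tested were higher and 5 lower. The positive differences named here thus lost their call in that test. Each of the 8 kept its call under the other scalings, without the count filter, with DESeq2, in the 4 groups of this line alone, with the replicate block and with each library left out.

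**Figure D4:**
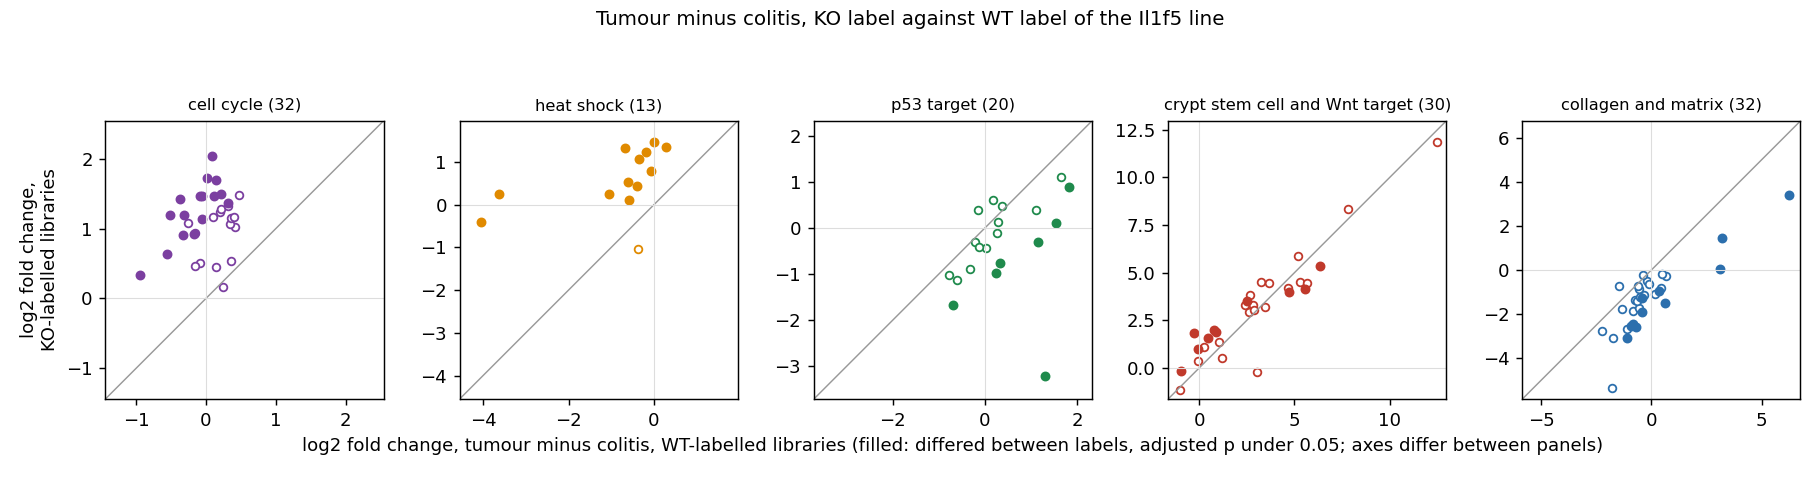
Log2 fold change of tumour minus colitis in the WT label (x) and KO label (y) for 5 gene lists, each panel on its own axes, with the line of equality; filled points differed between labels. Most cell cycle and heat shock points lie above the line (16 of 32 and 12 of 13 filled) and most p53 target and collagen points below it (7 of 20 and 11 of 32 filled), while crypt stem cell and Wnt target points lie on both sides (10 of 30 filled).

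Counts of the difference between labels depended on scaling: 60.0% of the calls were higher with TMM scaling (2113 higher, 1411 lower), 52.3% with DESeq2 size factors and 29.9% with library totals only, where the median of all genes shifted to -0.27. The direction of the cell cycle and heat shock lists held under each scaling (13 to 16 and 11 called higher), as did that of the p53 target list (8 to 10 called lower). Of the genes called higher in the KO label, 2716 (47.9% of them, and 69.6% of the WT calls) were also called higher in WT, and 117 were called lower. Of those called lower, 3063 (57.5% and 72.3%) were shared and 81 were opposite. Of the 30 crypt stem cell and Wnt target genes 23 also rose in WT, and the difference was called for 7 higher and 3 lower (2 higher with library totals only, 12 higher and 6 lower without the count filter, 1 lower with the replicate block). Over the libraries left out, 2 to 11 Wnt list members differed in the higher direction, with 2 without colitis KO replicate 1 or tumour KO replicate 1, 3 without colitis WT replicate 2 or tumour WT replicate 1, 4 without tumour WT replicate 2 and 11 without colitis KO replicate 3. The lower count was 1 without colitis WT replicate 1 or 2, colitis KO replicate 1 or 2, or tumour KO replicate 2, and all 3 lower calls were lost without tumour WT replicate 1 or tumour KO replicate 1. Goblet cell genes fell further in the KO label, with 8 of 24 differences lower and 1 higher (4 lower without tumour KO replicate 1 and 5 without tumour WT replicate 2). Muc2 was 1113 and 1949 CPM in WT tumours, its difference being -1.25 ± 0.31 (adjusted p = 0.0145; 0.101 without tumour KO replicate 1 and 0.0874 without tumour WT replicate 2). Clca1 differed by -3.15 ± 0.55. Ang4, which fell in the KO label, rose in WT from 23.1, 34.8 and 40.0 CPM to 137 and 238 CPM (difference -5.02 ± 0.82).

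Of the 6 IL-36 axis genes 2 rose (4 in the KO contrast without the count filter), Il1f5 and the agonist gene Il1f6 (1.71 and 1.78 CPM against 2 counts over the 3 colitis colons, a ratio of 50.2 with an interval of 13.4 to 422). Of the 6, 1 reached the count minimum only in tumours. The receptor gene Il1rl2 fell from 6.58, 8.48 and 6.80 CPM to 3.47 and 4.62 CPM (-0.85 ± 0.27), a call lost without colitis replicate 2 (adjusted p = 0.0535) or tumour replicate 1 (0.142). It rose in WT, and the difference of -1.99 was called. Il1f9 was 6.65 and 7.45 CPM against 1.96, 2.73 and 4.64 CPM. Its log2 fold change of 1.18 ± 0.53 did not pass (adjusted p = 0.0759), although the 5 libraries did not overlap and fits on fewer groups called it (adjusted p = 0.0161 with the 2 groups alone).

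Inflammatory cytokine genes were called higher in 5 of 25 cases and lower in 7, and of the 25 genes 4 reached the count minimum only in colitis colons and 1 only in tumours. Il1b overlapped (61.2 and 78.6 CPM against 34.1, 54.0 and 107 CPM; 0.10 ± 0.57). Il23a, a subunit of interleukin-23, rose from 0.318, 0.0488 and 0.608 CPM to 8.03 and 9.97 CPM (4.80 ± 0.61), Tnf rose from 6.84, 8.87 and 10.3 CPM to 26.7 and 26.3 CPM (1.61 ± 0.34) and Tgfb1 by 0.74 ± 0.15. Il19, a cytokine of the interleukin-10 family, had 1 tumour count against 73 in colitis colons (a ratio of 50.9, interval 8.86 to 2039). Il10, an anti-inflammatory cytokine gene, from 0.901, 1.56 and 1.49 CPM to 0.238 and 0.105 CPM, fell by 2.88 ± 0.80, with adjusted p = 0.0573 without tumour replicate 2. Il6 was 1.05 and 0.577 CPM against 5.94, 23.6 and 8.90 CPM, and Il22 had 2 tumour counts against 65. Both calls were lost without colitis replicate 2 (adjusted p = 0.0504 for Il6 and 0.0839 for Il22) and without tumour replicate 1 (0.0783 and 0.144), and that of Il6 also without tumour replicate 2 (0.102). The count of cytokine genes called lower was 2 without colitis KO replicate 2, without tumour KO replicate 1 and without tumour KO replicate 2, and the count called higher was 3 without colitis KO replicate 2 and without tumour KO replicate 2.

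Of 27 chemokine genes 7 were higher and 10 lower. Cxcl12, the stromal chemokine, was 11.3 and 8.87 CPM against 127, 122 and 119 CPM (-3.60 ± 0.33) and the eosinophil attractant gene Ccl11 2.57 and 3.52 CPM against 26.8, 39.4 and 25.1 CPM (-3.33 ± 0.35). Cxcl16 (1.44 ± 0.20) and Cxcl14 (1.71 ± 0.20) rose. Cxcl9, an interferon-gamma-induced attractant of T cells, was 133 and 98.3 CPM in tumours against 2.02, 1.32 and 10.5 CPM (4.67 ± 1.40; adjusted p = 0.0149), a call lost without colitis replicate 1 (0.0513) or 2 (0.0529). The neutrophil attractant gene Cxcl1 overlapped (17.0 and 24.7 CPM against 21.7, 70.6 and 16.2 CPM). Without tumour KO replicate 1, 5 chemokine genes were lower. Of 19 prostaglandin genes 10 fell and 4 rose, with 2 that reached the count minimum only in colitis colons and 1 only in tumours. Ptgs2, inducible cyclooxygenase, was 13 and 19.9 CPM against 55.5, 212 and 83.6 CPM (-2.83 ± 0.67), the prostacyclin receptor gene Ptgir fell by 4.28 ± 0.50 and the prostaglandin importer gene Slco2a1 by 2.50 ± 0.18. Abcc4, an exporter, rose from 16.3, 21.1 and 17.7 CPM to 110 CPM in both tumours (2.58 ± 0.17), and Ptges3, a co-chaperone counted with the synthases, by 1.02 ± 0.15.

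Interferon response genes were mostly not called: 4 of 28 fell and 24 did not pass. The calls turned with the fit: 4 of the KO contrast's 28 were higher with the 2 groups alone, where all 4 lower calls were lost, 5 higher and 4 lower with the 4 groups of this line, 13 higher and 11 lower without the count filter, 1 higher and 7 lower with DESeq2, and all 4 calls were lost with the replicate block. Cxcl10 was 37.3 and 24.9 CPM in tumours against 7.32, 4.83 and 20.3 CPM (1.53 ± 1.25). The falls of Oasl2 (111 and 68.9 CPM against 213, 194 and 509 CPM; -1.76 ± 0.63) and Rsad2 (13 and 6.45 CPM against 29.5, 19.1 and 103 CPM; -2.37 ± 0.82) came with a high value in colitis replicate 3. Without colitis replicate 3 their adjusted p was 0.112 and 0.111, without tumour replicate 1 it was 0.074 and 0.067 and without tumour replicate 2 it was 0.173 and 0.159. In edgeR, all 4 calls of the list were gone in each of those 3 fits. Of 16 antigen presentation genes 4 rose and 12 did not pass, while 7 rose with the 2 groups alone, 8 with the 4 groups of this line and 12 without the count filter. Cd74, the invariant chain of MHC class II, was 1040 and 707 CPM against 241, 150 and 341 CPM (1.84 ± 0.49), and the class II regulator Ciita was 24.9 and 21.4 CPM against 11.5, 6.58 and 12 CPM and did not pass (1.20 ± 0.63). The Cd74 call was lost without tumour replicate 1 (adjusted p = 0.057) and that of the peptide loading gene Tapbp (0.67 ± 0.25) without tumour replicate 1 (0.318), colitis replicate 1 (0.0967) or colitis replicate 2 (0.103). The number of antigen presentation genes called higher in the KO label fell to 1 without colitis replicate 1 or 2 and to 2 without tumour replicate 2, and all 4 calls were lost without tumour replicate 1.

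Among immune cell genes, those of mast cells were higher, 10 of 13 with 1 lower (median 4.65), and 4 of the 13 reached the count minimum only in tumours. The mast cell protease genes Mcpt1 and Mcpt2 were 184 and 307 CPM against 1.38, 4.10 and 5.20 CPM (Mcpt1; 6.11 ± 0.44) and 93.9 and 203 CPM against 0.848, 0.975 and 2.49 CPM (Mcpt2; 6.70 ± 0.42). Cpa3, mast cell carboxypeptidase, rose by 5.60 ± 0.39 and the tryptase gene Tpsb2 by 4.65 ± 0.34. Kit, the stem cell factor receptor carried by mast cells and also by the pacemaker cells of the muscle layer, was the member that fell (12.7 and 19.6 CPM against 77.5, 72.8 and 56.7 CPM; -2.10 ± 0.21). Macrophage and monocyte genes were mixed, 8 of 22 higher and 7 lower, with Adgre1 (F4/80) alike in both tissues (10.5 and 9.92 CPM against 10.4, 10.8 and 12 CPM; -0.11 ± 0.23). Of the 22, 2 reached the count minimum only in colitis colons. Cd163, a scavenger receptor of resident macrophages, had 3 tumour counts against 1467 (a ratio of 341, interval 117 to 1657) and Mertk fell by 2.76 ± 0.19, while Arg1, arginase, rose from 4.72, 5.07 and 6.52 CPM to 45.5 and 88.3 CPM (3.62 ± 0.41). Without tumour KO replicate 2, 4 macrophage genes were higher.

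Of 22 neutrophil genes 1 was higher and 1 lower, against 3 lower with DESeq2 and 3 higher and 8 lower of 24 without the count filter in the KO contrast. The rise of Lrg1, a glycoprotein that epithelium also makes, was 2.22 ± 0.27, and Ly6g fell by 1.26 ± 0.36 (43.0 and 62.6 CPM against 120, 132 and 128 CPM; adjusted p = 0.103 without tumour replicate 1). Without colitis KO replicate 1, 3 neutrophil genes were lower. S100a8 overlapped (144 and 153 CPM against 50.7, 204 and 142 CPM). Of 24 T and NK cell genes 4 rose and 3 fell (2 rose with the replicate block and with the 2 groups alone). Of the 24, 2 reached the count minimum only in colitis colons. Cd3e was 2.61 and 1.57 CPM against 2.60, 1.37 and 3.87 CPM and did not pass. Foxp3, the factor of regulatory T cells, was 3.47 and 2.15 CPM against 0.901, 0.488 and 0.995 CPM (1.82 ± 0.50; adjusted p = 0.0732 without tumour replicate 1). Cd8a fell by 1.62 ± 0.47 (adjusted p = 0.0652 without tumour replicate 2). Gata3 rose by 0.94 ± 0.35, a call lost without colitis replicate 2 (0.117) or tumour replicate 2 (0.203). The T and NK count called higher in the KO label became 2 without colitis replicate 1 and 1 without colitis replicate 2 or tumour replicate 1. Of 19 B and plasma cell genes 13 fell and 1 rose, and 5 reached the count minimum only in colitis colons. Pax5, the B cell factor, was 0.238 and 0.420 CPM against 4.56, 3.22 and 4.48 CPM (-3.62 ± 0.53), and Ighd, the immunoglobulin D constant region, fell by 3.75 ± 0.54. Cd79a fell by 1.94 ± 0.49 and Xbp1, which secretory epithelium also expresses, rose by 0.45 ± 0.12. Both calls were lost without tumour replicate 1 (adjusted p = 0.0544 and 0.107), where 6 genes of this list were lower.

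Genes of the deeper wall were lower in tumours. All 17 smooth muscle genes fell (median -3.45), with a summed level of 887 and 926 CPM in tumours and 5569 to 7634 CPM in colitis colons, and 14 to 17 were called with each library left out. Of the 17, 2 reached the count minimum only in colitis colons. Myh11, smooth muscle myosin, was 32.2 and 32.3 CPM against 1745, 1225 and 1145 CPM (-5.41 ± 0.93; adjusted p = 0.000477). Acta2, smooth muscle actin, fell from 973, 786 and 721 CPM to 129 and 113 CPM (-2.77 ± 0.52), Mylk by 3.38 ± 0.18 and Smtn by 2.68 ± 0.22. Of 20 enteric neuron and glia genes 19 fell and 1 did not pass, with 55.1 and 64.8 CPM summed in tumours and 262 to 417 CPM in colitis colons. Of the 20, 11 reached the count minimum only in colitis colons and Chat had no tumour count. Gfap, of glia, was 0.285 and 0.210 CPM against 26.7, 25.5 and 14.2 CPM (-6.44 ± 0.61), and the neuron and muscle genes Elavl4 and Chrm2 fell by 5.56 ± 0.63 and 5.58 ± 0.53. All 12 adipocyte genes fell (median -4.85, or -4.77 with genes that had no tumour count at their bound), although 5 reached the count minimum only in colitis colons. Adipoq, adiponectin, had no tumour count against 645, at least 150-fold lower, Cfd (adipsin) was 0.428 and 0.0525 CPM against 133, 98.5 and 87.6 CPM (-8.70 ± 0.66), Cidec fell by 4.64 ± 0.39 and Lpl by 3.30 ± 0.21. The colitis piece, taken near the anus, thus held RNA of muscle, nerve and fat at levels not found in the tumours, and the part of this in the other falls was not tested.

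Of 19 fibroblast genes 16 fell, 1 rose and 2 did not pass (median -1.86). Postn, a matrix protein of activated fibroblasts, was 27.0 and 23.2 CPM against 259, 250 and 227 CPM (-3.29 ± 0.28), the mesenchymal factor gene Tcf21 fell by 2.44 ± 0.22 and the proteoglycan gene Dcn by 1.84 ± 0.47 (adjusted p = 0.0547 without tumour replicate 1). Foxl1, of the fibroblasts beneath the crypt, rose from 3.61, 3.95 and 3.21 CPM to 10.4 and 17.9 CPM (1.98 ± 0.29). Of 32 collagen and matrix genes 21 fell and 2 rose. Col6a1 was 47.8 and 52.8 CPM against 323, 332 and 228 CPM (-2.55 ± 0.24) and Vcan fell by 2.59 ± 0.24. Col1a1 was 264 and 190 CPM against 469, 374 and 414 CPM (-0.88 ± 0.36; adjusted p = 0.0496) and was not called without any 1 of the 5 libraries (adjusted p = 0.0634 to 0.238). Thbs2 (1.45 ± 0.34) and the epithelial hemidesmosome collagen gene Col17a1 (3.23 and 11.4 CPM against 0.795, 0.585 and 0.663 CPM; 3.42 ± 0.53) rose. The summed matrix level was 2768 to 3446 CPM in KO tumours and 2601 to 3337 CPM in WT tumours. In colitis colons it was 6162 to 7400 CPM in the KO label and 3613 to 4137 CPM in WT. The summed fibroblast level was 882 to 937 CPM in KO tumours and 1072 to 1308 CPM in WT tumours. In colitis colons it was 2883 to 3073 CPM in the KO label and 1817 to 1928.5 CPM in WT. With colitis levels this unlike, the difference between labels was called lower in the KO label for 11 of the 32 matrix genes and 7 of the 19 fibroblast genes. With the 4 groups of this line alone these counts were 20 and 13, and without the count filter 23 of 33 matrix genes were called. The matrix count was 3 without tumour KO replicate 1 and 6 or 7 without either WT tumour, colitis WT replicate 2, colitis KO replicate 1 or 2, or tumour KO replicate 2, and the fibroblast count was 3 without tumour WT replicate 1 or tumour KO replicate 1.

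Matrix protease and inhibitor genes were 6 higher and 11 lower of 24. Besides Mmp7, Plat, tissue plasminogen activator, rose from 28.0, 41.5 and 23.2 CPM to 182 and 240 CPM (2.77 ± 0.31), while Plau, the other plasminogen activator, fell by 1.71 ± 0.29 and Adamts9 by 1.99 ± 0.36. Of 17 endothelial genes 11 fell and 3 rose. Pecam1 (CD31) was 25.5 and 20.9 CPM against 63.4, 85.4 and 57.0 CPM (-1.56 ± 0.29), and the receptor genes Kdr and Tek fell by 2.17 ± 0.26 and 1.79 ± 0.29. The members that rose were Sox17 (31.8 and 64.6 CPM against 5.51, 4.34 and 3.76 CPM; 3.41 ± 0.32), Prox1 and Sox18, and both Prox1 and Sox17 are also known in epithelial tumours. Skeletal muscle genes were at 15.4 and 17.5 CPM summed in tumours and 20.3 to 21.7 CPM in colitis colons, with 2 of 8 higher and 2 lower (1 lower with DESeq2, without the count filter and in the fits on fewer groups), and 4 of the 8 reached the count minimum only in colitis colons. The muscle creatine kinase gene Ckm fell by 4.56 ± 0.52 and the troponin gene Tnnt3 by 1.95 ± 0.78, and the troponin gene Tnni2 rose by 2.98 ± 0.36 and the myosin light chain gene Mylpf by 1.36 ± 0.38. The Tnnt3 call was lost without colitis replicate 1 (adjusted p = 0.273), tumour replicate 1 (0.172) or tumour replicate 2 (0.13). Of 6 erythrocyte genes, a measure of blood in the piece, 0 passed in edgeR and in DESeq2, and 0 had an unadjusted p under 0.05 in edgeR. In other edgeR fits of the KO contrast 1 was lower (the 2 groups alone, and the 4 groups of this line), and 5 of 7 were lower without the count filter. Hba-a1 was 47.3 and 16.3 CPM against 25.2, 67.8 and 54.3 CPM.

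Circadian clock genes were lower in 13 of 18 cases and higher in 2. The output factors fell: Dbp was 2.52 and 2.73 CPM against 45.7, 32.5 and 31.4 CPM (-3.80 ± 0.27; adjusted p = 2.20e-08), Hlf 0.618 and 0.315 CPM against 19.1, 21.1 and 13.8 CPM (-5.24 ± 0.42) and Tef 30.6 and 28.0 CPM against 172, 156 and 112 CPM (-2.33 ± 0.19). Npas2, of the positive limb, rose by 1.16 ± 0.14. Arntl (Bmal1), its partner, rose by 0.73 ± 0.24, a call lost without colitis replicate 1 (adjusted p = 0.0697), colitis replicate 2 (0.0632) or tumour replicate 2 (0.134). The hour of collection is not in the labels. Of 17 immediate early genes, which respond within minutes to handling and signals, 6 rose and 4 fell. Jun was 443 and 493 CPM against 203, 224 and 170 CPM (1.23 ± 0.16) and Ier2 rose by 0.75 ± 0.12, while Klf4, a factor of mature epithelium, fell by 2.49 ± 0.18 and Klf6 by 1.15 ± 0.15. Fos rose by 0.63 ± 0.22, a call lost without colitis replicate 1 (0.0748), colitis replicate 3 (0.0779) or tumour replicate 2 (0.308), and 2 members were lower without tumour KO replicate 1. Of 4 sex-linked genes tested 3 fell, among them the Y-linked Ddx3y (29.9 and 22.7 CPM against 71.6, 70.3 and 68.3 CPM; -1.41 ± 0.14) and Kdm5d (-0.86 ± 0.14).

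The tumour-to-colitis difference was last set against that of the libraries labelled Il1f9 KO, with which it shares no library. The test of the difference called 11.1% of genes higher and 11.7% lower (2175 and 2291), and 2861 higher and 1848 lower with library totals only, where the median of all genes was 0.12. Trp53 led here too, with the same kinds of genes left out: it rose by 1.11 ± 0.13 in the Il1f9 KO libraries, a difference of -2.79 ± 0.19 (adjusted p = 1.96e-06). The other genes with the smallest p were Dbp and Tef, which fell in the Il1f5 KO label and rose by 1.22 and 0.84 in the Il1f9 KO label (differences of -5.01 and -3.17), Itgav, an integrin (-2.17), Bnip3, a hypoxia-induced mitophagy receptor (-2.84), the lipid transporter gene Spns2 (-2.54), Egfr (-1.76) and the kinase gene Wnk2 (2.44). Of these, Itgav, Bnip3 and Egfr did not pass in the Il1f5 KO label and rose by 1.99, 3.12 and 1.63 in the Il1f9 KO label, and Wnk2, called at -0.34 in the Il1f5 KO label (adjusted p = 0.0465, and 0.105 to 0.149 without tumour replicate 1 or 2 or colitis replicate 1 or 2), fell by 2.78 on the log2 scale in the other. By group, 20 of 32 cell cycle genes were higher in this difference, and 12 of 20 p53 targets, 16 of 22 neutrophil genes, 15 of 22 macrophage genes and 15 of 22 regenerating epithelium genes were lower. The cell cycle count was 8 in the 4 knockout groups alone, 5 without tumour Il1f5 KO replicate 1, 6 without colitis Il1f9 KO replicate 2 and 11 without tumour Il1f9 KO replicate 1. The macrophage count was 9 without tumour Il1f9 KO replicate 2 and the regenerating epithelium count 8 without tumour Il1f5 KO replicate 1.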

How the data were processed

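Poly(A) RNA was sequenced as 150-base paired reads from a non-directional library, so reads of a gene and of an overlapping antisense gene cannot be told apart. The authors deposited raw counts per gene, in 3 tables joined here by gene identifier. Per the submitters' processing notes, Trim Galore 0.6.4, HISAT2 2.0.5 and featureCounts 2.0.0 were used; no genome build was stated in the labels, notes or headers used here. The 18 FPKM columns were not used.

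The counts of all 18 libraries were fitted as 8 group means with edgeR 4.0.16 in R 4.3.3 (TMM scaling, filterByExpr with a minimum count of 10, robust quasi-likelihood F test), with Benjamini-Hochberg adjustment over all genes tested and a threshold of 0.05. An SE is the log2 fold change divided by the square root of F. Ratios from 1 to 3 counts have 95% intervals, and bounds use 3 counts over the group; both cover counting error only. The fit was tested on simulated data. Alternatives were DESeq2 1.42.0, other scalings, no filter, fewer groups, a replicate block, a minimum change and each library left out.

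The contrast and the 42 gene lists (2 symbols had no gene in the tables) were chosen with earlier results of these data known. Named genes were the 12 largest rises and falls, the 2 called members of smallest p per direction and the first member of each list. They also included the 8 genes of smallest p in each difference between labels. The largest rises and falls were taken among called genes with mean log2 CPM of at least 1 and no overlap between tissues. Both these and the 8-gene rankings left out Gm and Rik names, unnamed genes, pseudogenes and immunoglobulin or T cell receptor segments. A further 32 added genes and other members outside this rule were chosen after their values were seen. Some genes that this rule names are not reported here.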

Additional observations from a re-analysis of the deposited data

Results flagged for a closer look

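The test of the difference between labels against WT gave an adjusted p under 0.05 for 72 named genes (edgeR quasi-likelihood test, Benjamini-Hochberg adjustment). The rule had named 198 genes, and 32 were added. Over all genes the test called 18.1% against WT and 22.9% against the Il1f9 KO label. Many named genes were chosen by their calls in the KO contrast, so 72 is no share to set beside these. The 8 genes of smallest p against the Il1f9 KO label are listed with them. Each value below is that difference on the log2 scale, positive where tumour minus colitis was higher in the libraries labelled Il1f5 KO. The 8 genes against the Il1f9 KO label, and 8 of those against WT, were named for having the smallest p in these same tests. Others against WT were added after their values in this test were seen. The passing of both kinds is a description. Groups of 2 and 3 libraries are too small for a test of single outlying libraries.

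Genes are grouped here for reading only, after their values were seen, and a group's common sign is no result. Against WT, the values of cell cycle, chaperone and Wnt list genes, and of the co-chaperone gene Ptges3, were Mcm2 (1.54), Mybl2 (1.96), Ptges3 (0.83), Hspa1a (3.64), Hsp90ab1 (1.45), Hspa8 (1.41), Stip1 (1.39), Cdk1 (1.28), Mcm5 (1.70), Cdc20 (1.79), Ccnd1 (2.10), Myc (1.06), Sox9 (1.19), Apcdd1 (-0.98) and Hspa5 (0.85). For Trp53 and the p53 target list they were Phlda3 (-0.95), Sesn1 (-0.98), Trp53 (-2.55), Eda2r (-4.52) and Ccng1 (-1.08). Among secretory and tuft cell genes the values were Sst (-2.86), Muc2 (-1.25), Kcnk1 (0.90), Itln1 (-4.60), Zg16 (-0.84), Scg2 (-2.58), Dclk1 (-1.60), Plcg2 (1.20), Ptgs1 (-1.04), Clca1 (-3.15) and Ang4 (-5.02). Among stromal, muscle, matrix and BMP list genes they were Mmp7 (2.34), Id1 (1.15), Mamdc2 (-5.23), Bmp2 (-1.10), Chrdl1 (-1.47), Bmp3 (-1.43), Cxcl12 (-1.54), Tcf21 (-1.73), Postn (-1.87), Col17a1 (-2.85), Thbs2 (-1.74), Vcan (-1.89), Col6a1 (-1.62), Plau (-1.34), Mylk (-1.26), Smtn (-1.04), Chrm2 (-2.75), Lpl (-0.92) and Fhl1 (-2.51).

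The remaining positive values against WT were R3hdml (2.65), Ly6a (1.17), Reg3g (2.56), Pla2g2a (3.00), Ly6d (1.92), Tapbp (1.18), Lrg1 (2.54), Xbp1 (0.60), Hoxb13 (2.59), Hoxa10 (1.20), Ier2 (0.58), Snd1 (1.45), Ckap4 (1.30), Sec61a1 (1.26) and Tnf (1.83). The remaining negative values were Ereg (-3.59), Cyp3a13 (-1.20), Il1rl2 (-1.99), Ptgir (-2.44), Ighd (-2.54), Klf6 (-0.84) and Ephx1 (-2.51). Against the Il1f9 KO label the values were Egfr (-1.76), Dbp (-5.01), Trp53 (-2.79), Itgav (-2.17), Bnip3 (-2.84), Tef (-3.17), Spns2 (-2.54) and Wnk2 (2.44). Whether the opposite presence of Il1f5 reads to the labels bears on any of these differences was not tested.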

How the results depend on the processing

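In the tumour-to-colitis contrast of the libraries labelled Il1f5 KO, the counts of genes higher and lower stayed within 1.5 times under other scalings, no filter, DESeq2, fewer groups and a block for the replicate number (5344 higher, 5000 lower); leaving out each library gave 4434 to 5396 and 4108 to 5167. The deviations of same-numbered libraries of this contrast from their group means correlated at -0.091 and 0.055. The deviations of 2 tumours mirror each other, so this check cannot decide whether the numbers pair the libraries. Requiring a log2 change over 1 in the test gave 1446 higher and 2221 lower. For the difference from WT that requirement gave 0 higher and 5 lower (edgeR; 362 and 926 at an unadjusted p under 0.05), library totals 1004 and 2356, and leaving out each library 420 to 2274 and 219 to 1692, lowest without tumour KO replicate 1. For the difference from the Il1f9 KO label it gave 77 and 240, the 4 knockout groups alone 1148 and 1439, and leaving out each library 1145 to 2465 and 1349 to 2734. The cause of these shifts was not tested, except that leaving out a library leaves fewer samples; where 1 tumour remains, its spread is taken from the other groups. Of the values for single genes, 3117 kept their direction and call, 114 lost the call, 22 gained it and 7 changed sign. Those were Il1b (-0.21, -0.02 and -0.10 without colitis replicate 1, colitis replicate 2 and tumour replicate 2; range -0.21 to 0.65), Cxcl1 (0.14 without colitis replicate 2; range -1.16 to 0.14), S100a8 (-0.23 without colitis replicate 1; range -0.23 to 0.62) and Cd3e (0.08 and 0.00 without colitis replicate 3 and tumour replicate 2; range -0.72 to 0.08), none of which passed in the contrast as reported. At this depth 3 counts are 0.0748 CPM over the tumours and 0.0522 CPM over the colitis colons, which limits folds of genes near 0.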
